A study of Mus musculus with 45 samples.

Results

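Transfer RNAs reach their working form only after enzymes cut, join and chemically modify them, and the messenger RNAs of 50 genes for such enzymes were followed here through loss of the transcription factor GABPA in mouse embryos and embryonic stem (ES) cells. The genes were taken by symbol. They are the protein-coding genes of the *Trmt*, *Trmu*, *Nsun*, *Elp*, *Tsen*, *Ctu*, *Pus* and *Adat* series together with *Mettl1*, *Wdr4*, *Thg1l*, *Trit1*, *Osgep*, *Elac2* and *Rtcb*. Of 55385 genes in the files, 21897 are protein-coding and 50 met this rule. A further 3 symbols of the series belong to other gene types in the annotation (*Trmt61b*, listed as antisense, and the pseudogenes *Trmt112-ps1* and *Trmt112-ps2*) and were left out. RNA sequencing covered the late two-cell stage (L2C) with 3 libraries for each treatment, and the morula, the E4.5 inner cell mass (ICM) and ES cells grown in 2i/LIF (2iES cells) with 2 libraries for each treatment, 18 libraries in all. Every library, vehicle controls included, carried *Gabpa* alleles fused to a degron tag (*Gabpa* dTAG/dTAG), and dTAG13 is a small molecule that leads the tagged protein to degradation. Embryos came from knock-in mice backcrossed to C57BL/6J, were made by in vitro fertilization and cultured in KSOM with 1 µM dTAG13 or DMSO. Treatment started at 6 h post-fertilization (hpf) for collection at 30 hpf (L2C), at 42 hpf, the four-cell stage, for the morula, and at 84 hpf for the ICM. 2iES cells derived from the E14 line through picked single clones were kept with 0.5 µM dTAG13 or DMSO for 24 h. The ICM was freed of trophectoderm by immunosurgery and is a mixture of epiblast and primitive endoderm cells. Untagged embryos treated with dTAG13 were not analysed here, so an effect of the compound itself cannot be told apart from the loss of GABPA, and the treatment windows differ between stages.

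A new tRNA transcript carries extra ends and sometimes an intron. Nucleases trim the ends, a splicing endonuclease and a ligase remove the intron and close the cut, and methyltransferases, deaminases, thiolases and pseudouridine synthases then alter single bases, many of them in the anticodon loop where they tune decoding, others in the body where they hold the fold. Several of these enzymes act in the mitochondrion on tRNAs made there, and several work as complexes in which one subunit is catalytic and the other binds the tRNA or stabilizes its partner.

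Expected counts per library summed to between 20449966 and 23718870 at L2C, 9457933 and 12382705 in the morula, 18266057 and 20818291 in the ICM and 20146785 and 27660132 in 2iES cells. The mRNA of *Gabpa* cannot show whether the protein was degraded, and it was higher with dTAG13 at all 4 stages, by a log2 fold change between 0.52 at L2C and 0.95 in the ICM. Trophectoderm markers had a summed level of 81.05 to 85.36 TPM (a length-scaled share of each library) in the DMSO libraries of the ICM and 790 to 791 TPM with dTAG13, and 6 of the 8 markers listed were upregulated there, including *Krt18*, *Gata3* and *Cdx2*. In the same libraries the summed epiblast markers went from 697 to 715 TPM down to 358 to 365 TPM, and the primitive endoderm markers from 435 to 436 TPM up to 856 to 862 TPM. Of the primitive endoderm list only *Dab2* was called, with a mean of 149.9 FPKM with DMSO and 489.5 FPKM with dTAG13. The log2 fold changes of *Gata4*, *Gata6*, *Pdgfra* and *Col4a1* lay between 0.59 and 0.98. Those of *Foxa2*, *Sox17* and *Sox7* were 0.09, -0.11 and -0.44. In 2iES cells the trophectoderm markers summed to 110 to 141 TPM with DMSO and 127 to 132 TPM with dTAG13, with *Cdx2* and *Elf5* too low to test. Among them *Eomes* was downregulated (-1.21 on the log2 scale), *Tead4* and *Tfap2a* had -0.83 and -0.58, and *Krt8*, *Krt18* and *Gata3* between 0.11 and 0.58. Epiblast markers there summed to 454 to 540 and 311 to 341 TPM. Of these *Nanog*, *Pou5f1* and *Prdm14* were downregulated. *Fgf4* and *Tdgf1* had log2 fold changes of -0.38 and -0.24, and *Sox2*, *Klf4* and *Esrrb* of 0.39, 0.48 and 0.15. At L2C oocyte markers summed to 1379 to 1389 TPM with DMSO and 1751 to 1980 TPM with dTAG13 and two-cell stage markers to 212 to 554 and 342 to 654 TPM, with 0 of either list called by edgeR. The most abundant oocyte marker, *Oosp1*, had means of 1240 FPKM with DMSO and 1666 FPKM with dTAG13. The part of these marker changes in the results that follow was not tested. In such bulk samples fewer cells of a type and less RNA per cell cannot be told apart. The paper reports that the ICM for RNA was taken at the mid-blastocyst stage, before epiblast cell numbers differed with treatment.

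The summed messenger RNA of the 50 genes was lower with dTAG13 at L2C, in the ICM and in 2iES cells. It was 1308 to 1331 TPM with DMSO and 1136 to 1252 TPM with dTAG13 at L2C, 1022 to 1091 and 984 to 1026 TPM in the morula, 1821 to 1832 and 1326 to 1327 TPM in the ICM, and 1392 to 1571 and 752 to 754 TPM in 2iES cells. The DMSO and dTAG13 libraries did not overlap at L2C, in the ICM or in 2iES cells, and did overlap in the morula. Abundant genes weigh most in such a sum. The 3 most abundant members in 2iES controls, *Trmt112*, *Elp5* and *Osgep*, went from means of 286, 248 and 156 FPKM to 20.6, 111 and 62.1 with dTAG13. Calls of downregulated or upregulated genes rest on an adjusted p-value under 0.05 from edgeR's quasi-likelihood test and on a change of 2-fold or more. They also need a mean FPKM (a fragment count scaled by transcript length and library depth) of 1 or more in 1 of the groups. At L2C 49 members could be tested, 4 were downregulated, against 3.63% of all genes tested, and 0 upregulated, against 0.476%, with DESeq2 also calling 4 and 0 and 18 members at an unadjusted p under 0.05. Without replicate 1 of DMSO the count at L2C was 2. In the morula 48 were tested and 0 were called in either direction, where 0.198% of all genes were downregulated and 0.154% upregulated. Of the members tested there, 7 had an unadjusted p under 0.05 and DESeq2 also called 0. In the ICM 12 of 48 were downregulated, against 13.2% of all genes, and 0 upregulated, against 12.1%, with DESeq2 also calling 12 and 0 and 43 members at an unadjusted p under 0.05. In 2iES cells 18 of 48 were downregulated, against 15.6% of all genes, and 1, *Nsun3*, was upregulated, against 12.4%. As shares of the members tested, the downregulated genes made up 8.16% at L2C, 25.0% in the ICM and 37.5% in 2iES cells.

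The median log2 fold change of the members was -0.06 at L2C (0.021 when libraries were scaled by their totals alone), -0.04 in the morula (0.040 in a fit over all 18 libraries), -0.42 in the ICM and -0.61 in 2iES cells. The median of all genes tested was 0.02, -0.02, 0.01 and 0.03. Without the fold change threshold, an adjusted p-value under 0.05 was reached in the ICM by 36 members that fell (38.5% of all genes did so) and 7 that rose (38.4%), in 2iES cells by 27 that fell (28.1%) and 4 that rose (26.5%), and at L2C by 13 that fell (7.24%) and 1, *Elp6*, that rose (1.32%). The replicates of the ICM lay closer together than those of the other stages, with a common biological coefficient of variation of 0.0237 against 0.159 to 0.284, so small changes pass the test there. The 2 libraries of each ICM group differed by little more than counting noise, with a median squared deviation between them of 1.63 (DMSO) and 1.69 (dTAG13) times that of counting alone, against 2.86 for dTAG13 in 2iES cells and 8.2 to 16.2 for the other pairs. The very small p-values of the ICM measure only that spread, which may be technical. With the spread estimated over all 18 libraries, 10 members were downregulated in the ICM and 16 in 2iES cells. Taken over the stages, 23 of the 50 genes were downregulated at 1 or more of them, 14 at a single stage, 7 at a pair of stages and 2, *Trmt6* and *Nsun6*, at L2C, in the ICM and in 2iES cells. Of the 20973 genes tested at any stage, 17.7% were downregulated at 1 or more, 12.1% at a single stage, 4.48% at a pair and 1.19% at 3 or more. The ICM and 2iES lists shared 8 members, 66.7% of the former and 44.4% of the latter. Over all genes the shared ones made up 48.7% and 42.2% of these lists.

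**Figure D1:**
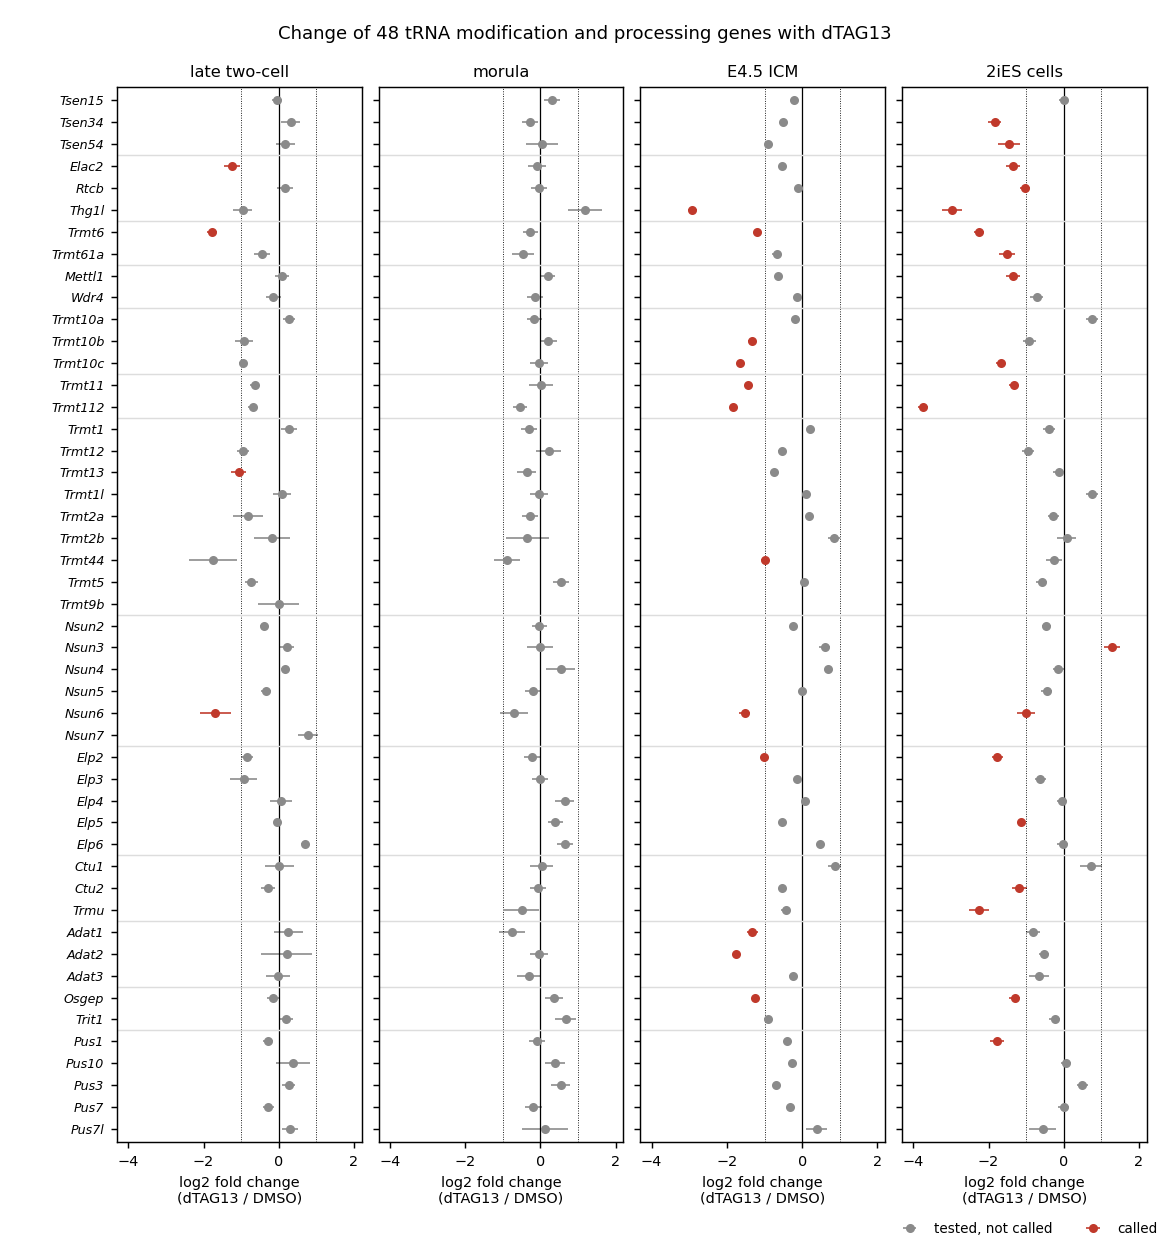
Log2 fold change (dTAG13 over DMSO, bars 1 standard error) of 48 of the 50 genes, ordered by role and separated by grey lines, at the 4 stages. Red points were called, dotted lines mark a 2-fold change, and genes without a point were not tested; red points number 4, 0, 12 and 19 from left to right.

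GABPA belongs to the ETS family, whose members bind a core of GGAA, and the longer form CCGGAAG (or CTTCCGG on the other strand) was searched in RefSeq promoter windows on GRCm38.p6, from 250 bases before to 50 after each start site. It stood in 8.86% of 32851 windows and for 9.93% of all gene symbols, or 13.4% of protein-coding ones. Of the 39 members with a window, 13 held it, a share of 33.3%. It was found for 8 of 19 members downregulated at 1 or more stages and for 5 of 20 of the others. These counts describe letters in a window. Binding of GABPA was not analysed here. With the shorter form CGGAAG (or CTTCCG), added after the data were seen, the members with a match were 18 of 39, against 18.8% of all symbols and 24.2% of protein-coding ones. Windows of the strongly downregulated *Thg1l* and *Trmt10c* and of *Nsun6*, which fell at 3 stages, are printed from 80 bases before to 20 after the start site with the 7 letters in capitals, beside that of *Trmt112*, which fell most and has no match in its window. All read 5′ to 3′ on the strand of the gene, for *Thg1l* at chr11:45955484-45955583 (minus strand), *Trmt10c* at chr16:56037767-56037866 (minus), *Nsun6* at the inner of its 2 starts at chr2:15049293-15049392 (minus) and *Trmt112* at chr19:6909618-6909717 (plus).
Thg1l: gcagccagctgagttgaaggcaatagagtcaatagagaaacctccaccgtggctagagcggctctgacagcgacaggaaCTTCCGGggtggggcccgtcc
Trmt10c: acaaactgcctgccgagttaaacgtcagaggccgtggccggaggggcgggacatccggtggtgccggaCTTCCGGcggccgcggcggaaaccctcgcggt
Nsun6: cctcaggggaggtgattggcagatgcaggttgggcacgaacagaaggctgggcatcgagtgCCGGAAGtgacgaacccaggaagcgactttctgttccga
Trmt112: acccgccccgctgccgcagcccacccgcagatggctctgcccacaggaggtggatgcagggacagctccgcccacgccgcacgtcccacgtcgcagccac
In these printed windows the 7 letters start 1 base before the start site in *Thg1l*, 12 before it in *Trmt10c* and 19 before it in *Nsun6*. The window of the other start of *Nsun6* has no match. *Thg1l* also has another window, not printed, with a match at -47. In the windows of the downregulated *Trmt61a* and *Trmu* they start at -2 and 3, and in that of *Osgep* at -233. *Nsun3*, the gene that rose in 2iES cells, has them at -45.

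*Trmt112* had the largest fold change of the 50 genes, in 2iES cells. It encodes a small zinc-binding protein that serves as the partner of several methyltransferases, of tRNA, ribosomal RNA and a translation release factor alike, and keeps them stable. At L2C the DMSO libraries stood at 185, 228 and 187 FPKM and the dTAG13 libraries at 131, 125 and 126. In the morula the values were 207 and 232 against 136 and 149.8, in the ICM 217 and 206 against 61.1 and 61.9, and in 2iES cells 299.8 and 272 against 20.7 and 20.6. Every dTAG13 library lay below every DMSO library of its stage. The log2 fold change was -0.69 (SE 0.11, adjusted p = 0.00274) at L2C, -0.54 (SE 0.19, adjusted p = 0.258) in the morula, -1.83 (SE 0.04, adjusted p = 5.14e-30) in the ICM. In 2iES cells it was -3.74 (SE 0.13, adjusted p = 1.88e-05), a 13.4-fold decrease. *Trmt112* is a plus-strand gene at chr19:6909698-6911049 (GRCm38), and the antisense gene *Prdx5* covers 33.2% of its exonic bases. Of its 31-base words, 60.1% also stand in transcripts of other genes, 29.6% in those of *Prdx5*, 27.1% in the pseudogene *Trmt112-ps2* and 18.6% in *Trmt112-ps1*. Since the libraries do not keep strand, reads of these genes cannot be fully separated. *Prdx5*, an antioxidant enzyme gene named, like the other overlapping genes, after its values were seen, had log2 fold changes of -0.61 at L2C, 0.21 in the morula, -0.31 in the ICM and -1.19 in 2iES cells, where it was called downregulated. The mean FPKM of *Trmt112-ps2* went from 5.61 to 0.38 in the ICM and from 24.2 to 0 in 2iES cells.

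*Trmt11*, a TRMT112 partner that methylates a guanosine in the tRNA core, stood at 36.3 and 34.1 FPKM in the ICM controls against 13.3 and 14.8 with dTAG13, and 64.2 and 71.1 against 33.7 and 29.6 in 2iES cells. It fell by 1.43 (SE 0.06) and 1.33 (SE 0.12) on the log2 scale, with the groups apart at both stages. At L2C it fell by 0.65 (adjusted p = 0.0091), below a 2-fold change, and in the morula its DMSO libraries at 9.21 and 19.6 FPKM enclosed both dTAG13 libraries.

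*Thg1l*, a homologue of the enzyme that adds a guanosine to the 5′ end of histidine tRNA, had the largest fall of the 48 members tested in the ICM. Its controls there had 18.5 and 18.6 FPKM against 3.85 and 3.14 with dTAG13. The values were 6.77 and 8.69 against 0.81 and 1.49 in 2iES cells, and 9.09, 8.73 and 10.7 against 3.29, 4.58 and 5.81 at L2C. In the morula the order was turned, with 1.53 and 3.30 FPKM in the controls and 4.28 and 5.71 with dTAG13. The log2 fold change was -2.92 (SE 0.12, adjusted p = 8.63e-23) in the ICM, -2.97 (SE 0.26, adjusted p = 2.16e-04) in 2iES cells and -0.96 (SE 0.25, adjusted p = 0.0408) at L2C. The morula value of 1.19 (SE 0.46) did not pass the test (adjusted p = 0.295). The libraries of the 2 groups were apart at all 4 stages, below the controls at 3 and above them in the morula. From the FPKM the decrease in the ICM comes to -2.41 on the log2 scale, smaller than from the counts, and the cause was not tested.

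Of the other enzymes of tRNA ends and joints, *Elac2*, *Rtcb*, *Tsen34* and *Tsen54* were downregulated in 2iES cells, where 15.6% of all genes tested were. Only *Elac2* was called at another stage, L2C. *Elac2*, the nuclease that cuts the 3′ trailer in nucleus and mitochondrion, had L2C controls of 8.10, 7.24 and 7.30 FPKM against 3.32, 4.18 and 2.88 with dTAG13, and 4.04 and 3.91 against 1.68 and 1.41 in 2iES cells. It was downregulated at both, by 1.24 (SE 0.21, adjusted p = 0.00418) and 1.36 (SE 0.19, adjusted p = 0.0013) on the log2 scale, and had a log2 fold change of -0.53 in the ICM (adjusted p = 5.54e-08). *Rtcb*, the ligase that joins the cut tRNA after splicing, went from 65.25 and 53.74 to 30.4 and 29.4 FPKM in 2iES cells, a log2 fold change of -1.03 (SE 0.14). In the ICM its 4 libraries lay between 96.2 and 99.1 FPKM with overlapping groups. Of the splicing endonuclease subunits, *Tsen34*, a catalytic subunit, had 69.6 and 53.7 FPKM against 18.7 and 17.6 in 2iES cells (log2 fold change -1.84, SE 0.17). *Tsen54*, a structural subunit, had 11.35 and 8.92 against 3.77 and 6.78 (-1.45, SE 0.29, or -0.94 from the FPKM). In the ICM *Tsen34* and *Tsen54* had log2 fold changes of -0.51 and -0.89, the latter from a mean of 30.8 to 17.9 FPKM. *Tsen15*, another structural subunit, was not called at any stage, with a log2 fold change of -0.01 in 2iES cells. *Tsen34* shares 38.4% of its 31-base words with other genes, 30.4% with *4930526A20Rik*, whose mean FPKM in 2iES cells was 1.11 with DMSO and 0.74 with dTAG13. The antisense gene *Mboat7* covers 10.9% of the exonic bases of *Tsen34* and was downregulated there too, by 1.51 (adjusted p = 0.00126).

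**Figure D2:**
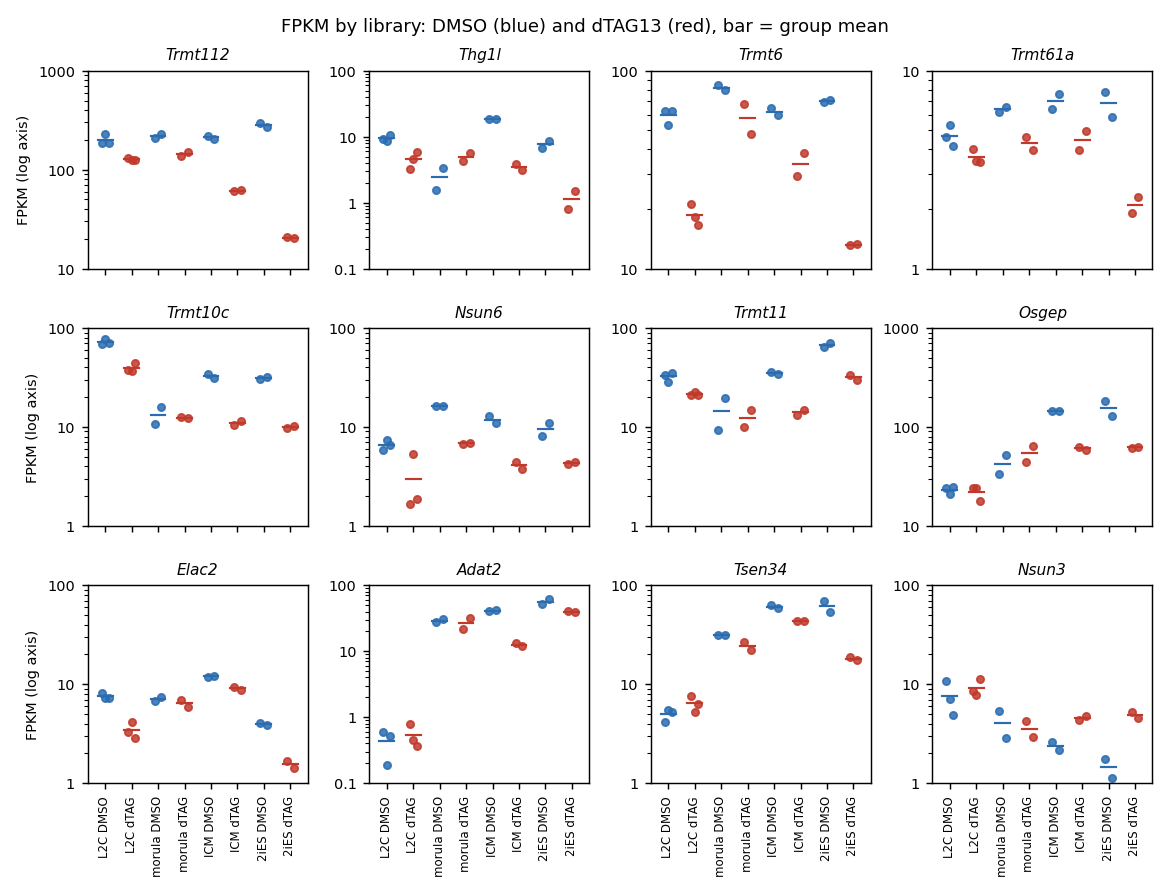
FPKM on a log axis of 12 of the genes in each of the 18 libraries, DMSO in blue and dTAG13 in red, with the group mean as a bar. The red points of *Trmt112* in 2iES cells sit at 20.7 and 20.6 FPKM below blue points at 299.8 and 272, while those of *Nsun3* lie above the blue ones there.

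Both subunits of the enzyme that methylates adenosine in the T loop of tRNA were called in 2iES cells, the tRNA-binding *Trmt6* and the catalytic *Trmt61a*. At L2C *Trmt6* went from 62.6, 53.4 and 62.3 to 21.1, 18.2 and 16.6 FPKM. The values were 64.6 and 59.9 against 29.4 and 38.3 in the ICM, and 69.2 and 71.1 against 13.1 and 13.3 in 2iES cells. The log2 fold changes were -1.77 (SE 0.14, adjusted p = 1.92e-05), -1.20 (SE 0.05, adjusted p = 4.67e-23) and -2.26 (SE 0.12, adjusted p = 4.73e-05), and no dTAG13 library reached the lowest control. In the morula, controls at 84.5 and 79.9 FPKM also lay above 68.0 and 47.9 with dTAG13, but the value of -0.27 did not pass the test (adjusted p = 0.571). *Trmt61a* was downregulated in 2iES cells, from 7.85 and 5.86 to 1.90 and 2.29 FPKM (-1.52, SE 0.21), and its log2 fold change was -0.68 in the ICM (adjusted p = 6.95e-06) and -0.45 at L2C (adjusted p = 0.26).

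*Mettl1*, which places 7-methylguanosine in the variable loop, went from 40.9 and 30.4 to 13.6 and 14.0 FPKM in 2iES cells (log2 fold change -1.35, SE 0.18, adjusted p = 0.00115). Its partner *Wdr4* fell there by 0.72 (SE 0.17), short of 2-fold. In the ICM *Mettl1* fell by 0.65 and *Wdr4* by 0.13 on the log2 scale, the latter with overlapping FPKM, and whether the pair differed was not tested.

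Of the 3 *Trmt10* genes, whose products methylate the purine between the acceptor and D stems, *Trmt10c* was called in the ICM and in 2iES cells. This mitochondrial enzyme, which is also a subunit of mitochondrial RNase P, went from 69.3, 78.1 and 69.9 to 37.4, 37.0 and 44.6 FPKM at L2C. The values were 34.5 and 31.4 against 10.6 and 11.5 in the ICM and 30.8 and 31.8 against 9.76 and 10.3 in 2iES cells. It fell by 0.95 (SE 0.11), 1.64 (SE 0.06) and 1.68 (SE 0.12), with adjusted p-values of 2.92e-04, 8.24e-25 and 1.10e-04, and in the morula 12.5 and 12.2 FPKM with dTAG13 lay between the controls at 10.7 and 15.8. *Trmt10b* was downregulated in the ICM, from 15.5 and 14.25 to 7.87 and 7.78 FPKM (-1.34, SE 0.11), and its fall of 0.92 both at L2C and in 2iES cells passed the test without reaching 2-fold. *Trmt10a*, whose product works on tRNAs of nuclear genes, rose by 0.75 in 2iES cells (SE 0.16, adjusted p = 0.00682), from 20.7 and 24.7 to 35.6 and 31.3 FPKM.

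*Nsun6*, which methylates cytosine near the 3′ end of certain tRNAs, was downregulated at 3 stages. At L2C it went from 5.85, 7.34 and 6.61 to 1.65, 5.38 and 1.85 FPKM. The values were 12.8 and 10.98 against 4.47 and 3.72 in the ICM, and 8.13 and 10.9 against 4.20 and 4.47 in 2iES cells. Replicate 2 of dTAG13 at L2C lay just under the lowest control. The log2 fold changes were -1.69 (SE 0.40, adjusted p = 0.0261), -1.53 (SE 0.14, adjusted p = 5.76e-12) and -1.001 (SE 0.24, adjusted p = 0.012), and the FPKM at L2C gave -1.16. In the morula controls at 16.32 and 16.31 FPKM lay above 6.78 and 6.83 with dTAG13. The counts gave -0.70 there, which was not called, and the FPKM gave -1.26. Leaving out any library at L2C except replicate 2 of dTAG13 raised the adjusted p above 0.05, to at most 0.0952, with log2 fold changes between -2.13 and -1.36. In 2iES cells leaving out either dTAG13 library did so, to at most 0.064, as did the fit over all 18 libraries, to 0.0939. *Nsun3*, the mitochondrial enzyme that starts 5-formylcytosine in methionine tRNA, was the only member called upregulated at any stage, from 1.75 and 1.14 to 5.27 and 4.57 FPKM in 2iES cells (log2 fold change 1.27, SE 0.21, adjusted p = 0.00286). It rose by 0.60 (SE 0.14) in the ICM too. *Nsun2*, the main cytosine methyltransferase of tRNA, fell by 0.40 at L2C, 0.25 in the ICM and 0.47 in 2iES cells. *Nsun4*, which works on the mitochondrial ribosome, rose by 0.67 in the ICM.

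Among enzymes that act in the anticodon loop, *Osgep*, which adds a threonylcarbamoyl group to the base beside the anticodon, went from 145 and 143 to 62.7 and 58.9 FPKM in the ICM. In 2iES cells it stood at 181.48 and 130.16 against 61.3 and 62.9. The log2 fold changes were -1.26 (SE 0.04, adjusted p = 5.12e-25) and -1.303 (SE 0.15, adjusted p = 5.84e-04), while at L2C and in the morula its groups overlapped. It shares 11.8% of its 31-base words with other genes, at most 5.54% with any 1 of them. Of these, *AC115117.1* (5.54%) was downregulated in the ICM, by 1.09. *Rad1* (5.21%) was downregulated in the ICM and in 2iES cells, by 1.51 and 1.55. *Trit1*, which adds an isopentenyl group to the base beside the anticodon in another set of tRNAs, went from 14.9 and 14.3 to 9.36 and 8.43 FPKM in the ICM. Its log2 fold change was -0.91 there (adjusted p = 1.49e-11) and -0.24 in 2iES cells (adjusted p = 0.212). *Adat2*, the catalytic subunit of the deaminase that makes inosine at the wobble base, went from 40.4 and 41.6 to 13.2 and 11.9 FPKM in the ICM (-1.76, SE 0.07, adjusted p = 1.45e-22). In 2iES cells it went from 51.9 and 60.9 to 40.5 and 39.1 (-0.53, SE 0.13). Its partner *Adat3* fell by 0.25 in the ICM, but 92.0% of its exonic bases lie in the same-strand gene *Gm49322*, and its reads are uncertain for that reason. *Adat1*, which deaminates the base beside the anticodon of alanine tRNA, was downregulated in the ICM, from 4.63 and 4.52 to 1.97 and 1.72 FPKM (-1.32, SE 0.15), and fell by 0.82 in 2iES cells. *Adat2* overlaps the antisense gene *Pex3* over 17.0% of its exonic bases, and *Pex3*, a peroxisome assembly gene, fell in the ICM by 1.37.

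Of the 9 genes for Elongator and for thiolation of the wobble uridine, 4 were downregulated in 2iES cells, where 15.6% of all genes tested were, 1 in the ICM, near the 13.2% of all genes, and 0 at L2C and in the morula. *Elp2*, a scaffold subunit of Elongator, the complex that starts the modification of wobble uridine, went from 28.5 and 30 to 17.1 and 15.8 FPKM in the ICM. In 2iES cells the values were 18.9 and 18.1 against 5.67 and 5.74, and it fell by 1.01 (SE 0.05) and 1.76 (SE 0.13). *Elp5*, of the accessory subcomplex and the most abundant Elongator transcript in FPKM, fell by 1.13 (SE 0.10) in 2iES cells, from 249 and 247 to 109.7 and 113. The catalytic subunit *Elp3* fell by 0.62 there (adjusted p = 0.0128), and *Elp4* had a log2 fold change of -0.05. *Elp6* moved the other way at L2C, from 82.1, 86.5 and 75.5 to 134, 143 and 133 FPKM, a rise of 0.69 (SE 0.10, adjusted p = 0.00163), and rose by 0.47 in the ICM. *Ctu2*, a subunit of the cytosolic thiolase, fell by 1.19 (SE 0.20) in 2iES cells, from 35.4 and 25.8 to 9.53 and 10.7 FPKM. *Ctu1*, the catalytic subunit, had 0.66 and 0.92 FPKM in controls and 1.26 and 1.42 with dTAG13 (adjusted p = 0.0658) and rose by 0.87 in the ICM. The antisense gene *Piezo1* covers 47.3% of the exonic bases of *Ctu2* and rose by 1.42 in 2iES cells. *Trmu*, the mitochondrial thiolase, fell by 2.26 (SE 0.27, adjusted p = 6.79e-04) in 2iES cells, from 10.2 and 8.16 to 2.15 and 2.2 FPKM, and by 0.44 in the ICM. At L2C it was too low to test.

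Of the pseudouridine synthases *Pus1*, active in nucleus and mitochondrion, was downregulated in 2iES cells, where 15.6% of all genes tested were. No other was called at any stage. *Pus1* went from 20.4 and 17.5 to 5.08 and 6.25 FPKM in 2iES cells (log2 fold change -1.78, SE 0.19, adjusted p = 4.59e-04). The antisense gene *Gm26515*, whose level was not analysed here, covers 23.8% of the exonic bases of *Pus1*, and 25.3% of the 31-base words of *Pus1* stand in other genes. *Pus3* fell by 0.69 in the ICM and rose by 0.50 in 2iES cells, but the antisense gene *Hyls1* covers 88.1% of its exonic bases and had log2 fold changes of -1.40 and -0.16 there. *Pus7* fell by 0.33 in the ICM, *Pus10* had log2 fold changes between -0.27 and 0.38 and *Pus7l* between -0.56 and 0.39. Other methyltransferases were called at single stages. *Trmt13*, which methylates a ribose in the acceptor stem, went from 22.1, 18.2 and 21.4 to 11.3, 9.30 and 10.3 FPKM at L2C (-1.06, SE 0.20, adjusted p = 0.00633), fell by 0.74 in the ICM and had a value of -0.13 in 2iES cells. Its antisense gene *Lrrc39* covers 13.4% of its exonic bases and had a log2 fold change of 0.66 at L2C (adjusted p = 0.293). *Trmt44*, a uridine ribose methyltransferase of serine tRNA, went from 8.16 and 7.02 to 3.91 and 4.38 FPKM in the ICM and sat at the 2-fold threshold (-1.0004, SE 0.10). *Trmt12*, of the wybutosine pathway, fell by 0.95 both at L2C and in 2iES cells. *Trmt1l* rose by 0.76 in 2iES cells and *Trmt2b*, a mitochondrial enzyme, by 0.85 in the ICM. *Trmt9b* held 6 counts or fewer in every library after L2C, and *Nsun7* held 12 or fewer.

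The effect itself differed between stages for a part of the members. Differences of log2 fold changes were tested as interaction terms over all 18 libraries, past the threshold at an adjusted p-value under 0.05 and a difference of at least 1. Between morula and ICM 10 members passed with a value that was higher in the morula, against 7.97% of all genes. A lower one was found for 0, against 4.86% (edgeR, 17 at an unadjusted p under 0.05 in either direction, DESeq2 also 0). On the adjusted p-value alone the counts were 13 (10.6%) and 0 (5.44%), between L2C and ICM 10 higher (9.87%) and 5 lower (10.4%), and between ICM and 2iES cells 8 higher (7.42%) and 3 lower (9.93%). The difference was 4.16 for *Thg1l* (SE 0.51, adjusted p = 2.64e-05), 1.79 for *Adat2* (SE 0.35, adjusted p = 0.00177), 1.69 for *Osgep* (SE 0.27, adjusted p = 2.87e-04) and 1.67 for *Trmt10c* (SE 0.24, adjusted p = 1.19e-04). Between L2C and ICM 6 passed with a higher value at L2C (8.07% of all genes) and 2 with a lower one (7.83%), *Trmt2a* and *Trmt9b*, of which DESeq2 called 0. That pair became 0 without replicate 1 of DMSO or replicate 3 of dTAG13 at L2C or without any 1 library of the ICM, and 1 without replicate 3 of DMSO or replicate 2 of dTAG13 at L2C or either dTAG13 library of 2iES cells. *Adat2* at 1.95 and *Thg1l* at 1.93 led the former. Between ICM and 2iES cells 4 passed with a smaller fall in the ICM (5.74% of all genes), namely *Trmt112* at 1.86 (SE 0.19, adjusted p = 7.20e-06), *Pus1* at 1.33, *Tsen34* at 1.28 and *Trmt6* at 1.01. A value lower in the ICM was found for 2 (8.12%), *Adat2* at -1.28 and *Pus3* at -1.23. The last count was 1 without any 1 library of the ICM or without replicate 1 of either treatment in 2iES cells. *Trmu* had a difference of 1.77 (SE 0.69) that did not pass (adjusted p = 0.0887). For *Thg1l*, *Trmt10c* and *Osgep* the difference between ICM and 2iES cells was 0.011 (SE 0.49), -0.0044 (SE 0.23) and 0.0029 (SE 0.26), each smaller than its standard error.

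**Figure D3:**
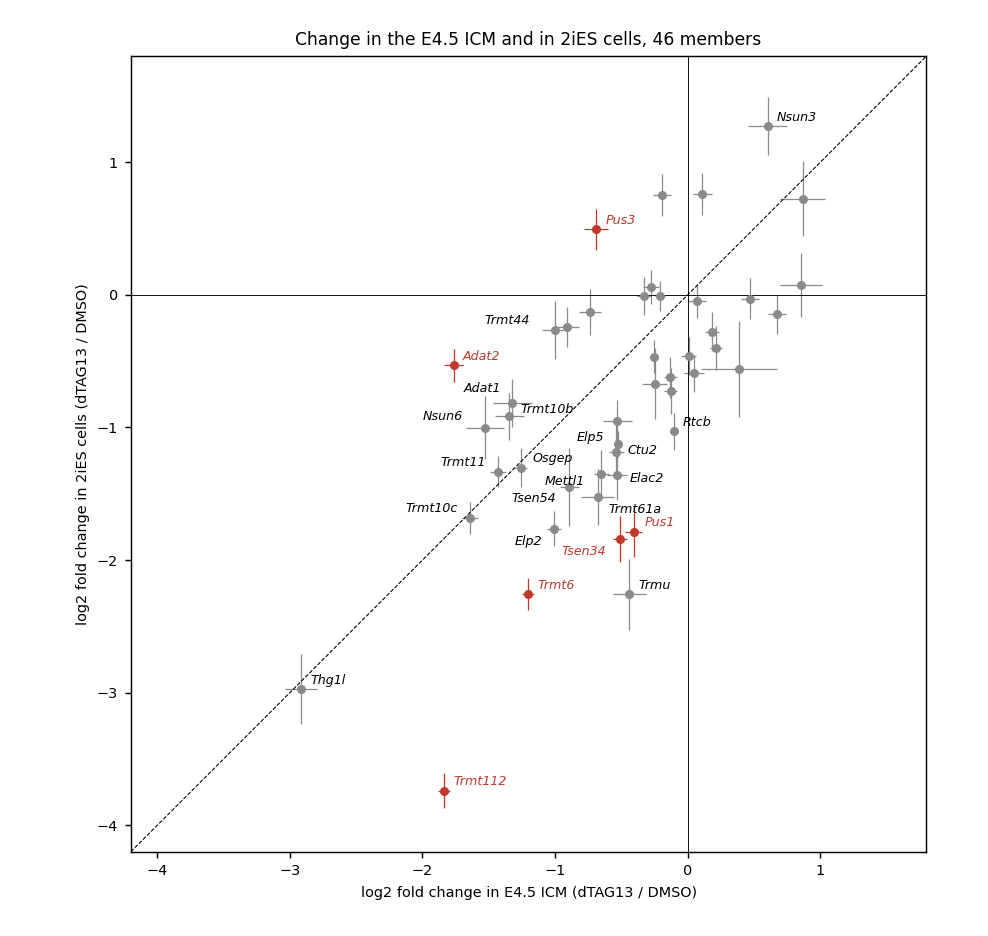
Log2 fold change (dTAG13 over DMSO) in the E4.5 ICM on the horizontal axis and in 2iES cells on the vertical axis for 46 of the 48 genes tested at both, with bars of 1 standard error. Red marks the 6 genes whose effects differed past the threshold, names mark those and every gene called at either stage, and the dashed line is equality; *Trmt112* lies farthest below it and *Thg1l* close to it.

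The levels from which these changes start also differed between stages. Among DMSO libraries *Elp5* and *Trmt112* were the top pair at each stage. Their mean levels were 423 ± 15.97 (SD, n = 3) and 199.8 ± 24.4 FPKM at L2C. They were 195 ± 7.45 (SD, n = 2) and 219.8 ± 17.4 FPKM in the morula. In the ICM they were 245 ± 10.6 and 212 ± 7.66 FPKM and in 2iES cells 248 ± 1.11 and 286 ± 19.8 FPKM. At L2C and in the ICM *Elp5* lay above *Trmt112* in every control library. In the morula, with 189 and 199.9 FPKM against 207 and 232, and in 2iES cells it lay below. *Elp6* came next at L2C with 81.4 FPKM, *Trmt6* in the morula with 82.2, and *Osgep* in the ICM with 144 and in 2iES cells with 156. The lowest were *Adat2* with 0.43, *Trmu* with 0.56 and *Trmt44* with 0.88 FPKM at L2C, and afterwards *Trmt9b* and *Nsun7*, joined by *Pus7l* in the morula and ICM and by *Ctu1* in 2iES cells. The median of the members' mean levels was 9.54 FPKM at L2C, 14.7 in the morula, 24.5 in the ICM and 17.8 in 2iES cells, where the median of all genes with at least 1 FPKM was 8.46, 8.65, 10.4 and 9.01.

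From L2C to the morula, with the same thresholds, 15 members rose (22.6% of all genes tested) and 10 fell (27.7%). By the adjusted p-value alone 21 rose (31.2%) and 15 fell (38%), from the morula to the ICM 22 (24.6%) and 3 (21%), and from the ICM to 2iES cells 12 (21.9%) and 10 (20.7%). *Adat2* rose by 6.08 on the log2 scale (SE 0.28), from 0.59, 0.19 and 0.52 to 27.7 and 30.4 FPKM. *Elp3* rose by 4.07 (SE 0.20), from 1.44, 1.02 and 0.98 to 20.2 and 17.7, and *Trmu* by 4.02 (SE 0.39), from 0.71, 0.53 and 0.44 to 4.64 and 6.47. *Nsun4* fell by 4.31 (SE 0.21), from 42.4, 40.8 and 41.6 to 3.00 and 1.59 FPKM, and *Nsun7* by 2.89 (SE 0.66). *Trmt9b*, with 18 to 55 counts at L2C and 0 in the morula, was at least 5.13-fold lower, against a floor of 3 counts per library. From the morula to the ICM 14 rose (16% of all genes tested), led by *Thg1l* (3.17, SE 0.33), *Tsen54* (2.76, SE 0.30) and *Nsun4* (2.39, SE 0.21). A single one, *Ctu1*, fell (13.2%), by 1.41 (SE 0.42), a call lost without replicate 1 of the morula or either replicate of the ICM, where the count was 0. *Osgep* was among those that rose, from 33.2 and 52.0 to 145 and 143 FPKM. Between ICM and 2iES cells 4 were higher in 2iES cells (12% of all genes tested), *Pus7l* (1.90, SE 0.38), *Trmt11* (1.48), *Trmt10b* (1.26) and *Trmt5* (1.05). For *Trmt5* the FPKM gave only 0.24, with overlapping libraries. Lower were 2 (12.7%), *Trmt44* by 1.63 and *Elac2* by 1.10, or 5 lower without replicate 1 of 2iES cells. With library totals in place of TMM scaling that last count was 12 lower and 2 higher, and the median over all genes moved by -0.47 on the log2 scale, so those counts depend on the scaling. These stages differ in cell type, culture and collection, which cannot be told apart.

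**Figure D4:**
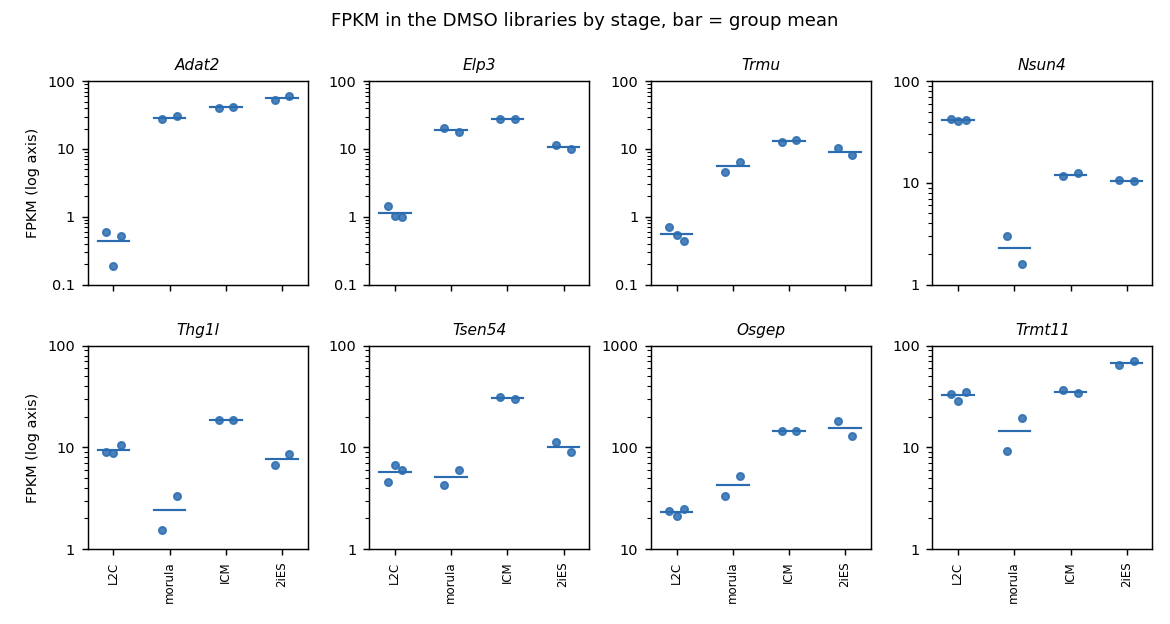
FPKM on a log axis of 8 of the genes in the 9 DMSO libraries by stage, with the group mean as a bar. *Adat2*, *Elp3* and *Trmu* lie under 2 FPKM at L2C and above 4 from the morula on, *Nsun4* drops from about 42 FPKM at L2C to 3.00 and 1.59 in the morula, and *Thg1l* has its lowest level in the morula.

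The rest of the tRNA pathway was followed with a list of 66 further genes for modification, end maturation and ligation, of which 65 were found. At L2C 11 of 63 tested were downregulated, against 3.63% of all genes, and 0 upregulated, against 0.476% (22 had an unadjusted p under 0.05, and DESeq2 called 11 and 0). In the morula edgeR called 0 of 65 (21 had an unadjusted p under 0.05, and DESeq2 called 1). In the ICM 16 of 65 were downregulated (13.2% of all genes) and 1 upregulated (12.1%), and in 2iES cells 21 of 65 (15.6%) and 1 (12.4%). Their median log2 fold changes of -0.19, -0.04, -0.40 and -0.58 stand beside -0.06, -0.04, -0.42 and -0.61 for the members. *Thumpd3*, a TRMT112 partner, had the largest change at L2C and fell by 2.39 (SE 0.20), from a mean of 82.3 to 14.2 FPKM. *Mettl6*, a cytosine methyltransferase of serine tRNA, had the largest change in the ICM, where it fell by 6.11 (SE 0.13), from a mean of 42.5 to 0.90 FPKM. *Kti12*, an Elongator regulator, had it in 2iES cells, where it fell by 6.19 (SE 0.30), from a mean of 29.2 to 0.41 FPKM. *Prorp*, the nuclease subunit that works with TRMT10C in mitochondrial RNase P, was upregulated in 2iES cells by 1.49 (SE 0.18), and *Mocs3*, of the thiolation pathway, in the ICM by 1.05 (SE 0.21).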

How the data were processed

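RNA was measured in 18 libraries (SMART-Seq v4 cDNA, Nextera XT, no strand information). The authors used Trimmomatic 0.39 on the reads, STAR for alignment (GRCm38) and RSEM for gene values. They deposited, per gene, expected counts, TPM and FPKM, all used here. Groups came from the sample labels. The 50 genes, the marker lists and the other tRNA pathway list were chosen with earlier results of these data known. Expected counts were rounded to whole numbers. Genes with at least 10 counts in 3 libraries (L2C) or 2 libraries (other stages) were tested, dTAG13 against DMSO within each stage, with edgeR 4.0.16 (quasi-likelihood test, TMM scaling, Benjamini-Hochberg adjustment over all genes tested) in R 4.3.3. Standard errors are the log2 fold change over the root of F. Differences of effects were interaction terms over all 18 libraries, and stages were compared over the 9 DMSO libraries. FPKM divides by length and served for levels. Named genes were every called member, other subunits of its complex, members whose effects differed between stages, the 3 highest and lowest in the controls of each stage, the 3 with the largest change each way between control stages, and of the other pathway list the called gene with the largest change each way at each stage. Alternatives were DESeq2 1.42.0, DESeq2 size factors, library totals, no count filter, all 18 libraries in a fit, another FPKM rule, no fold change threshold, limma 3.58.1 voom with stage weights, a replicate block and each library left out. The procedure was tested on simulated data. Depth per library was 9457933 to 27660132 expected counts. Where the labels do not tie replicates to separate litters or cultures, p-values measure only the spread between these libraries. Some members are counted in the totals, but their own values are not reported here.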

Additional observations from a re-analysis of the deposited data

Results flagged for a closer look

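These results stand here because the effect of dTAG13 differed between a pair of stages in an interaction test over all 18 libraries (edgeR, adjusted p-value under 0.05 and a log2 difference of at least 1). No explanation was weighed.

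Between L2C and the ICM, the log2 fold change at L2C minus that in the ICM was 1.95 for *Adat2*, 1.93 for *Thg1l*, 1.55 for *Adat1*, 1.12 for *Trmt112*, 1.07 for *Osgep* and 1.07 for *Trit1*. It was -1.02 for *Trmt2a* and -5.28 for *Trmt9b*. The control libraries of the ICM hold 0 counts of *Trmt9b* and those with dTAG13 4 to 6, so the size of its value has no meaning.

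Between the morula and the ICM the same difference was 4.16 for *Thg1l*, 1.79 for *Adat2*, 1.69 for *Osgep*, 1.67 for *Trmt10c*, 1.65 for *Trit1*, 1.62 for *Trmt10b*, 1.503 for *Trmt11*, 1.36 for *Trmt112*, 1.296 for *Pus3* and 1.00 for *Trmt6*.

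Between the ICM and 2iES cells it was 1.86 for *Trmt112*, 1.33 for *Pus1*, 1.28 for *Tsen34* and 1.01 for *Trmt6*, and -1.28 for *Adat2* and -1.23 for *Pus3*. Reads of *Pus3* cannot be told apart from those of the antisense gene *Hyls1* over 88.1% of its exonic bases. The antisense genes *Prdx5*, *Mboat7*, *Pex3* and *Gm26515* cover 33.2% of those of *Trmt112*, 10.9% of *Tsen34*, 17.0% of *Adat2* and 23.8% of *Pus1*.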

How the results depend on the processing

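Of the 35 called changes of members with dTAG13, 33 kept an adjusted p-value under 0.05 in every alternative run, and 2, *Nsun6* at L2C and in 2iES cells, did not. Without a fold change threshold, but with the FPKM threshold kept, the members called were 13 lower and 1 higher at L2C, 36 and 7 in the ICM and 4 higher in 2iES cells, and between controls 2 lower and 22 higher for ICM against morula and 10 lower and 12 higher for 2iES cells against ICM. The median at L2C became 0.021 with library totals, -0.10 with no count filter and -0.11 with all 18 libraries, and the median in the morula 0.040 with all 18 libraries. Effects lower at L2C than in the ICM numbered 0 with DESeq2 size factors, DESeq2 or the replicate block within stages and 1 with library totals, no count filter or voom, and effects lower in the morula than in the ICM 1 with voom. Library totals gave 12 lower and 2 higher members for 2iES cells against ICM. Relative to TMM they moved the median of all genes by -0.47 there, by 0.10 for ICM against morula and by -0.20 for the difference between morula and ICM, where DESeq2 size factors moved it by -0.11. The causes were not tested.

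With each library left out in turn, an arm of 2 is left with 1 library, assumed to vary like the others. Members called lower ranged from 2 to 5 at L2C, 0 to 0 in the morula, 10 to 12 in the ICM and 17 to 18 in 2iES cells, and those called higher stayed at 0, 0, 0 and 1. Their medians ranged from -0.21 to -0.085, -0.12 to -0.011, -0.47 to -0.35 and -0.69 to -0.59. Differences past the threshold ranged from 0 to 2 lower and 5 to 8 higher for L2C minus ICM, 0 and 9 to 12 for morula minus ICM, and 1 to 3 and 3 to 5 for ICM minus 2iES. Between controls the ranges were 9 to 10 lower and 14 to 16 higher for morula against L2C, 0 to 1 and 12 to 16 for ICM against morula, and 2 to 5 and 3 to 5 for 2iES cells against ICM.

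The labels tie samples with the same replicate number by that number alone, and whether they share a batch is not known. Deviations of same-numbered libraries correlated at 0.052, 0.125 and 0.104 at L2C, 0.029 in the morula, -0.046 in the ICM and -0.233 in 2iES cells. At L2C each library correlated best with its own number. With the replicate number as a block, 4, 0, 11 and 17 members were called lower at the 4 stages. A crossed pairing in 2iES cells, chosen after seeing the data, gave 17 lower and 1 higher. The morula libraries were the shallowest, at 9457933 to 12382705 counts, and what their depth could detect was not tested.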
